A study of Mus musculus with 8 samples.

Results

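Skeletal muscle contractile and myogenic genes were examined for altered chromatin accessibility in embryonic mouse hearts lacking CHD4 in cardiomyocytes. The set held 43 of the 21951 protein-coding genes of GENCODE M21, grouped by role as myogenic transcription factors and progenitor genes, a fusion gene, thin filament, thick filament, Z-disc and stabilising proteins, excitation-contraction coupling, the neuromuscular junction and muscle energy metabolism. The genes were listed by name and not by a measured value, but the list was drawn up with earlier results of these data known. A peak was counted for a gene when the nearest protein-coding transcription start site (TSS) was that of the gene, or when the peak lay within 10 kb of the gene body.

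Accessibility was measured by ATAC-seq, in which Tn5 transposase inserts sequencing adapters into open DNA, in hearts at E10.5. The 8 samples were 4 WT and 4 *Chd4-CMko* samples, with no treatment given in either group. In *Chd4-CMko* hearts floxed *Chd4* (both alleles) is deleted by Cre under the *Tnnt2* promoter, which is active in cardiomyocytes. Each sample was a pool of hearts (4 per sample in the protocol of the labels, 3 in the design text) that was dissociated whole, and 40000 viable cells were taken. Any cells of the heart that do not express this Cre keep *Chd4*, and the cell composition of the samples was not measured. The files were 2 lists of differential peaks, 12991 that were more open in *Chd4-CMko* (called gained) and 2745 that were more open in WT (called lost). For differential peaks, the study's methods give a cutoff of a 2-fold change and name no significance limit. Values and depths of single samples were not part of these lists. The genotypes could therefore not be tested against the spread between samples, and the depth behind each peak is not given (the study's methods state a single sequencing depth for all samples). Intervals for shares are Wilson 95% intervals and cover counting error only. More cells of a type and more open chromatin per cell cannot be told apart in these whole-heart samples, and the lists hold no RNA measurement.

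Skeletal muscle fate is set by PAX3 and PAX7 in progenitors and then by the myogenic basic helix-loop-helix factors MYF5, MYOD, MYOG and MYF6, which bind E-boxes and act together with MEF2 factors on the genes of the sarcomere. The sarcomere and the calcium release system of skeletal muscle are built largely from isoforms that have a cardiac counterpart, which predominates in the adult heart, while the embryonic heart is known to express some skeletal isoforms as well, *Acta1* among them. CHD4 is the ATPase of the NuRD complex, a chromatin remodelling complex with histone deacetylase activity that is known for repression of genes.

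A gained peak was present at 29 of the 43 genes (67.4%, 52.5 to 79.5%), where the same rule found a gained peak at 37.4% of all protein-coding genes. At least 2 gained peaks were present at 13 of the 43 genes (30.2%, 18.6 to 45.1%), against 16.3% of all protein-coding genes. A lost peak was present at 2 genes, *Neb* and *Pax7* (4.65%, 1.28 to 15.5%), against 10.8% of all protein-coding genes, and both of these genes also had gained peaks. The 14 genes with neither were *Myf5*, *Myf6*, *Tnni2*, *Myh1*, *Myh2*, *Myh4*, *Myh8*, *Mybpc1*, *Klhl41*, *Jsrp1*, *Pvalb*, *Chrna1*, *Musk* and *Eno3*. Long genes collect more peaks under this rule, and the median gene length was 15.3 kb for the 43 genes and 17.4 kb for all protein-coding genes. The median length was 14.1 kb for the 29 genes with a gained peak and 16.2 kb for those without. From the gene body, the nearest gained peak lay at a median of 3.30 kb for the 43 genes and 38.1 kb for protein-coding genes. The nearest lost peak lay at a median of 393 kb and 321 kb, respectively. For the 14 genes without a gained peak the nearest was between 17.8 kb (*Jsrp1*) and 266 kb (*Myf5*) away, with a median of 68.9 kb.

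At promoters, defined as within 3 kb of any annotated TSS of the gene, 17 of the 43 genes had a gained peak (39.5%, 26.4 to 54.4%), against 12.4% of all protein-coding genes. With the 5′ end of the gene as the only start site, the count was 14 genes (32.6%, 20.5 to 47.5%) against 8.19%, and it was also 14 when start sites of coding transcripts alone were used, against 9.92%. The 3 genes that had a promoter peak only at an internal start site of a non-coding transcript were *Ryr1*, *Stac3* and *Myoz1*. A further 12 genes had gained peaks outside promoters only. A lost promoter peak was present at 0 of the 43 genes and at 1.24% of all protein-coding genes.

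**Figure D1:**
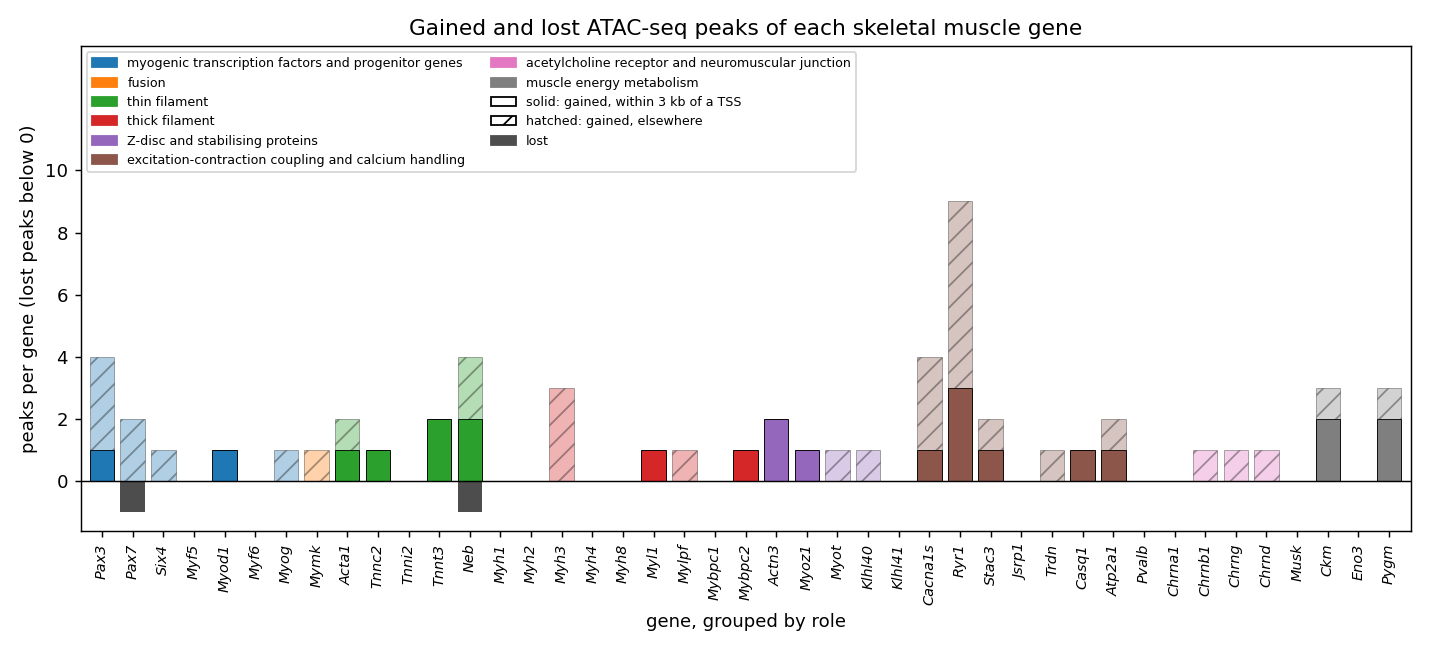
Number of ATAC-seq peaks (y axis) of each of the 43 skeletal muscle genes (x axis), coloured by role, with gained peaks above 0 (solid within 3 kb of a TSS, hatched elsewhere) and lost peaks below 0. *Ryr1* has 9 gained peaks, 14 genes have none, and lost peaks appear only at *Pax7* and *Neb*.

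The 29 genes held 57 gained peaks, which was 0.439% of the gained list (0.339 to 0.568%), and 2 lost peaks, which was 0.0729% of the lost list (0.0200 to 0.265%). Of the 57, 24 were promoter peaks, 10 lay within 100 bp of a TSS of the gene and 4 covered it. Within 3 kb of any protein-coding TSS lay 32 of the 57 peaks, and 2995 of the 12991 peaks of the gained list. The 32 include peaks at promoters of neighbouring genes. For the other positions given here, the shares of the list were not computed. By position relative to the gene, 20 were upstream, 15 intronic and 12 downstream, and the remaining 10 overlapped exons. For 45 of the 57 the nearest protein-coding TSS belonged to one of the 43 genes, and for 12 it belonged to a neighbouring gene. *Mylpf*, *Klhl40* and *Chrnb1* had a gained peak only of the latter kind, close to the TSS of *Sept1* (483 bp), *Hhatl* (5 bp) and *Fgf11* (668 bp). In those cases the list does not show which gene the site belongs to. Several of the 43 genes are neighbours on a chromosome (the *Myh3*, *Myh2*, *Myh1*, *Myh4* and *Myh8* cluster, *Myf5* with *Myf6*, *Chrnd* with *Chrng*, *Tnni2* with *Tnnt3*) and are not independent of each other. With neighbours within 200 kb taken as 1 locus, a gained promoter peak was still present at 17 loci.

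The DNA under the gained promoter peaks is shown for a choice of genes, because it carries many of the sites searched for below. Each sequence is mm10, 5′ to 3′ on the strand of the gene. Capitals mark E-boxes (CANNTG), the consensus of MEF2, the CArG box bound by SRF, the MCAT site of TEAD factors (ACATTCC), the MEF3 site (TCAGGTT) and the CCAAT box of NFY, on either strand, with touching matches run together. The GATA site (AGATAAG) and the SP/KLF site (GGGCGG), also searched for below, are not marked. GGGCGG is present in lower case in the *Acta1* and *Myod1* sequences. All intervals are whole peaks except that of *Cacna1s*, of which the part outside the annotated UTR is given. The first 9 are the highest-scoring promoter peak of each gene, and the last 2, of *Tnnt3* and *Pygm*, the promoter peak nearest to the 5′ end, chosen after their values were seen.
Stac3 chr10:127509151-127509301, plus strand: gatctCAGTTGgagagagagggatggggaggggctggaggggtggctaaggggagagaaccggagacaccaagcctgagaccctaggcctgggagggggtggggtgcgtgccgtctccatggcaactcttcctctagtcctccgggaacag
Ckm chr7:19409859-19410009, plus strand: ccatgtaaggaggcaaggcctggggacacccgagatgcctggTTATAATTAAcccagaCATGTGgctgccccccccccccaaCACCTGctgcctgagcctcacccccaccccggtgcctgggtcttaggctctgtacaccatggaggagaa
Acta1 chr8:123894767-123894917, minus strand: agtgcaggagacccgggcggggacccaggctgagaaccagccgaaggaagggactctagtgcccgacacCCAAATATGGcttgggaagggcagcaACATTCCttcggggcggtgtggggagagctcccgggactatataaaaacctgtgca
Tnnc2 chr2:164779778-164779928, minus strand: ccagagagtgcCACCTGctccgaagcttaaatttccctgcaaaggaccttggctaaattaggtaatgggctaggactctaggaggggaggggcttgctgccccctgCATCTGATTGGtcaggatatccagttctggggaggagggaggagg
Ryr1 chr7:29044411-29044561, minus strand: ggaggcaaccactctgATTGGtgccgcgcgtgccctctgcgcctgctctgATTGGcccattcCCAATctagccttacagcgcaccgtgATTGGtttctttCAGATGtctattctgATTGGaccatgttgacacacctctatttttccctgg
Atp2a1 chr7:126463156-126463306, minus strand: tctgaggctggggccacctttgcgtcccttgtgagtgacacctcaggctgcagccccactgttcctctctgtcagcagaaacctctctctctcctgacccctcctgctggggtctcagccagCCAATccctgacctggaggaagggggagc
Casq1 chr1:172220115-172220265, minus strand: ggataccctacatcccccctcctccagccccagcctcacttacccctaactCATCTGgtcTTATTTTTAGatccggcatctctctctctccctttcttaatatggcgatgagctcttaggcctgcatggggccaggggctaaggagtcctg
Cacna1s chr1:136052676-136052749, plus strand: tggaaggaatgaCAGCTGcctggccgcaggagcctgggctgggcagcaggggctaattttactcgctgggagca
Myod1 chr7:46376298-46376448, plus strand: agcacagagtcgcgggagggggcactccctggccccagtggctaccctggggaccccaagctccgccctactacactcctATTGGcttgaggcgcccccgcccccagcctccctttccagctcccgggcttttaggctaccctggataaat
Tnnt3 chr7:142498617-142498767, plus strand: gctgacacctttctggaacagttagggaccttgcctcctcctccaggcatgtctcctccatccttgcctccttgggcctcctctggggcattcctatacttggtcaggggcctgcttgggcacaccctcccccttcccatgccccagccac
Pygm chr19:6383544-6383694, plus strand: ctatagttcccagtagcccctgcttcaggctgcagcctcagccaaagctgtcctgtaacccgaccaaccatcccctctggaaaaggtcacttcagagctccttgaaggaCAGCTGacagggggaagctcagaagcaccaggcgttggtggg

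Among the 7 myogenic transcription factors and progenitor genes, 5 had a gained peak and 2 of them, *Pax3* and *Myod1*, at the promoter, against 37.4% and 12.4% of all protein-coding genes. *Myod1*, which can drive the muscle program in other cell types, had 1 gained peak, 26 bp upstream of its TSS, with a score of 89.5. The score is a value the authors deposited for each peak, and this one stood at the 67.2 percentile of the gained list, ties taking their mean rank. *Pax3*, a regulator of migrating muscle progenitors that also acts in neural crest, had 4 gained peaks. The promoter peak was 24 bp upstream of the TSS (score 93.5), and an intronic peak lay 7370 bp from it (score 112.5). The other peaks lay 103618 and 166362 bp downstream of the gene, which is 199485 and 262229 bp from its 5′ end (scores 38.5 and 55.5). *Pax7*, the paralogue that marks muscle satellite cells in later life, had an intronic gained peak (score 75), a gained peak 10198 bp upstream (score 32.0) and a lost peak 43867 bp upstream (score 59.1 in the lost list). *Myog*, needed for terminal differentiation, had a single gained peak 19698 bp upstream (score 53.0), and *Six4*, which encodes a homeobox factor acting upstream of the myogenic factors, had a peak across its coding sequence and UTR (score 43). *Myf5* and *Myf6*, which lie next to each other on chromosome 10, had no peak, and the nearest gained peak was 266 kb and 258 kb away. The fusion gene *Mymk*, which encodes the membrane protein myomaker, had a gained peak 3442 bp upstream of its TSS (score 166.5), just beyond the promoter distance.

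Thin filament genes had gained promoter peaks at 4 of 5 genes, against 12.4% of all protein-coding genes. *Acta1*, the skeletal alpha-actin, had a peak 16 bp upstream of its TSS (score 203.0) and another 9702 bp from the TSS, downstream of the gene (score 225.0). They stood at the 91.9 and 93.7 percentiles of the gained list. *Tnnc2*, the fast troponin C, had a peak 37 bp from a TSS (score 178.0). *Tnnt3*, the fast troponin T, had a peak 69 bp upstream of its 5′ end (score 89.5) and an intronic peak 2027 bp from a non-coding start site (score 101.0). *Neb*, the giant protein nebulin that runs along the thin filament, had 4 gained peaks with low scores, between 30 and 52.5, of which 2 were in introns near its start sites and 2 upstream of the gene. It also had 1 lost peak, in a coding exon far inside the gene (score 41.4 in the lost list). *Tnni2*, the fast troponin I, next to *Tnnt3*, had none, and its nearest gained peak was 30.5 kb away.

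Thick filament genes were the largest group and had gained peaks at 4 of 9 genes, near the 37.4% of all protein-coding genes. *Myl1*, the fast essential light chain, had a peak over a TSS, but with a score of 30 it was among the lowest of the gained list (8.80 percentile). *Mybpc2*, the fast myosin-binding protein C, had a peak 2956 bp upstream (score 87.5), just within the promoter distance. *Myh3*, the embryonic myosin heavy chain, had 3 gained peaks, at 9655 and 5509 bp upstream and 41349 bp from the TSS beyond the 3′ end, and all were low in the list (scores 34.0, 45.0 and 34.5). The adult and perinatal heavy chain genes of the same cluster, *Myh1*, *Myh2*, *Myh4* and *Myh8*, had no peak, and the nearest gained peak lay 51.2 kb (*Myh2*) to 157 kb (*Myh8*) away. *Mylpf*, the fast regulatory light chain, had its peak next to *Sept1* (score 96.0), and *Mybpc1*, the slow myosin-binding protein C, had none.

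At the Z-disc, 4 of 5 genes had a gained peak and 2 had one at the promoter, where the shares of all protein-coding genes are 37.4% and 12.4%. *Actn3*, the fast alpha-actinin, had a gained peak over its 5′ end (score 136.0) and another in a coding exon (score 104.0). *Myoz1*, a calsarcin that binds calcineurin, had a peak in an intron 107 bp from a non-coding start site and 4575 bp from the 5′ end, with a score of 62.5, equal to the median of the gained list. *Myot*, the Z-disc protein myotilin, had a peak 22542 bp upstream (score 63.0). Of the kelch proteins that stabilise the thin filament, *Klhl40* had a peak at the *Hhatl* promoter (score 99.0) and *Klhl41* had none.

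Excitation-contraction coupling genes held 19 of the 57 peaks, 9 of them at *Ryr1*, and had a gained peak at 6 of 8 genes and a gained promoter peak at 5, against 37.4% and 12.4% of all protein-coding genes. *Cacna1s*, the voltage sensor of the skeletal muscle T-tubule, had a peak over its TSS (score 96.0), 2 intronic peaks (scores 68.0 and 66.0) and a peak downstream that was nearer to *Kif21b* (score 61.0). *Atp2a1*, the fast calcium pump SERCA1, had a peak 48 bp upstream of the TSS (score 121.0) and an intronic peak at 3880 bp (score 107.5). *Casq1*, the skeletal calsequestrin that buffers calcium in the sarcoplasmic reticulum, had a peak 247 bp upstream (score 108.5). *Stac3*, an adaptor that couples the calcium channel to its release channel, had a peak 328 bp downstream of the gene and 1926 bp from a non-coding start site, and its score of 303.5 was the highest among the promoter peaks of the set. Its other peak (score 164.0) was nearer to *Ndufa4l2*. *Trdn*, the triad protein triadin that cardiac muscle also uses, had an intronic peak (score 100.5), 92.1% of which was annotated repeat. *Jsrp1*, which encodes a junctional protein of the sarcoplasmic reticulum, and *Pvalb*, the calcium buffer parvalbumin of fast fibres, had none.

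*Ryr1*, the calcium release channel of skeletal muscle, had 9 gained peaks, and 79 protein-coding genes (0.360%) had as many or more. Along the 122 kb gene, 6 peaks with *Ryr1* as the nearest gene had scores of 126.5, 79.5, 157.0, 77.0, 88.0 and 83.0. None of the 9 lay within 3 kb of the 5′ end of the gene, and the nearest was an intronic peak 6774 bp inside it. Of the 9, 3 were within 3 kb of start sites of internal non-coding transcripts, and one of these covered such a start site. The other three had a neighbour as the nearest gene. Of these, the highest score of the whole set (324.0) lay 151 bp from the TSS of *Map4k1*, and the peak 9603 bp upstream of *Ryr1* (score 107.0) covered the TSS of *Rasgrp4*. The intronic peak with a score of 126.5, printed above, held 5 CCAAT matches. The others of the 57 held at most 2, and 38 of the 12991 gained peaks (0.293%) held 5 or more.

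**Figure D2:**
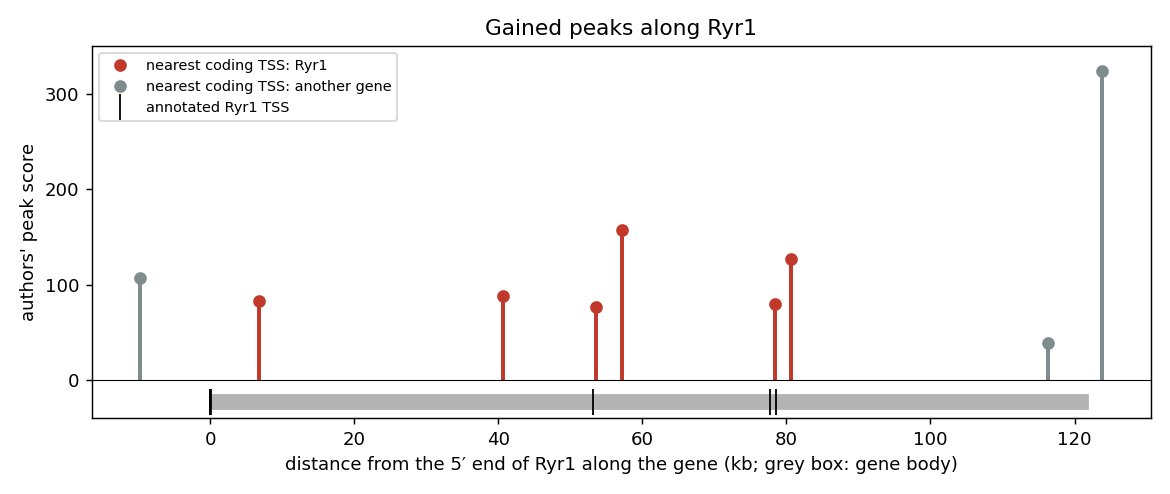
Gained peaks along *Ryr1*, with the distance from its 5′ end in kb on the x axis and the authors' peak score on the y axis. Red peaks have *Ryr1* as the nearest coding TSS and grey peaks a neighbouring gene, the grey box is the gene body and black ticks are annotated start sites, and none of the 9 peaks sits at the 5′ end of the gene.

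Of the 5 genes of the acetylcholine receptor and the neuromuscular junction, 3 had a gained peak and 0 had one at the promoter, against 37.4% and 12.4% of all protein-coding genes, and 5 genes are too few to set apart from these shares. The delta and gamma subunit genes *Chrnd* and *Chrng* shared 1 peak (score 61.5) 5680 bp upstream of *Chrng*. The beta subunit gene *Chrnb1* had a peak 4955 bp upstream (score 261.5), near *Fgf11*. The alpha subunit gene *Chrna1* and the receptor kinase gene *Musk* had none.

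Muscle energy metabolism was represented by 3 genes, of which 2 had a gained peak, both at the promoter, against 37.4% and 12.4% of all protein-coding genes. *Ckm*, the muscle creatine kinase and a textbook case of a gene with an upstream muscle enhancer that holds E-boxes and a MEF2 site, had 3 gained peaks, with scores of 234.0, 235.5 and 268.5 (percentiles 94.2, 94.4 and 96.1). The highest was 1016 bp upstream of a coding start site inside the annotated gene, in an intron of a longer transcript, and held 2 E-boxes and a MEF2 match, while the other two covered start sites of *Klc3*. Whether this match, found by its letters alone, is the MEF2 site of the known enhancer was not tested. *Pygm*, the muscle glycogen phosphorylase, had a peak 705 bp upstream of its TSS (score 100.5) and 2 peaks beyond its 3′ end over start sites of *Rasgrp2* (scores 200.0 and 275.5). *Eno3*, the muscle enolase, had none, and its nearest gained peak was 25.2 kb away.

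Gained peaks of these genes ranked in the upper range of the gained list, but not at its top. Their median score was 93.5 (30 to 324.0) against 62.5 for the list, which is a median percentile of 68.8 (interquartile range 48.6 to 81.9), and 41 of 57 (71.9%) scored at or above the list median, against 50.1% of all gained peaks. Peaks near a TSS score higher than others in the whole list, so both classes were compared separately, a peak being classed here by whether any protein-coding TSS, also that of a neighbouring gene, lay within 3 kb. Near a TSS, the median percentile was 73.5 for 32 peaks of the set and 78.6 for 2995 of the list. Away from one, it was 49.1 for 25 peaks and 42.5 for 9996. No peak of the set reached the maximum of the list, 696.5.

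**Figure D3:**
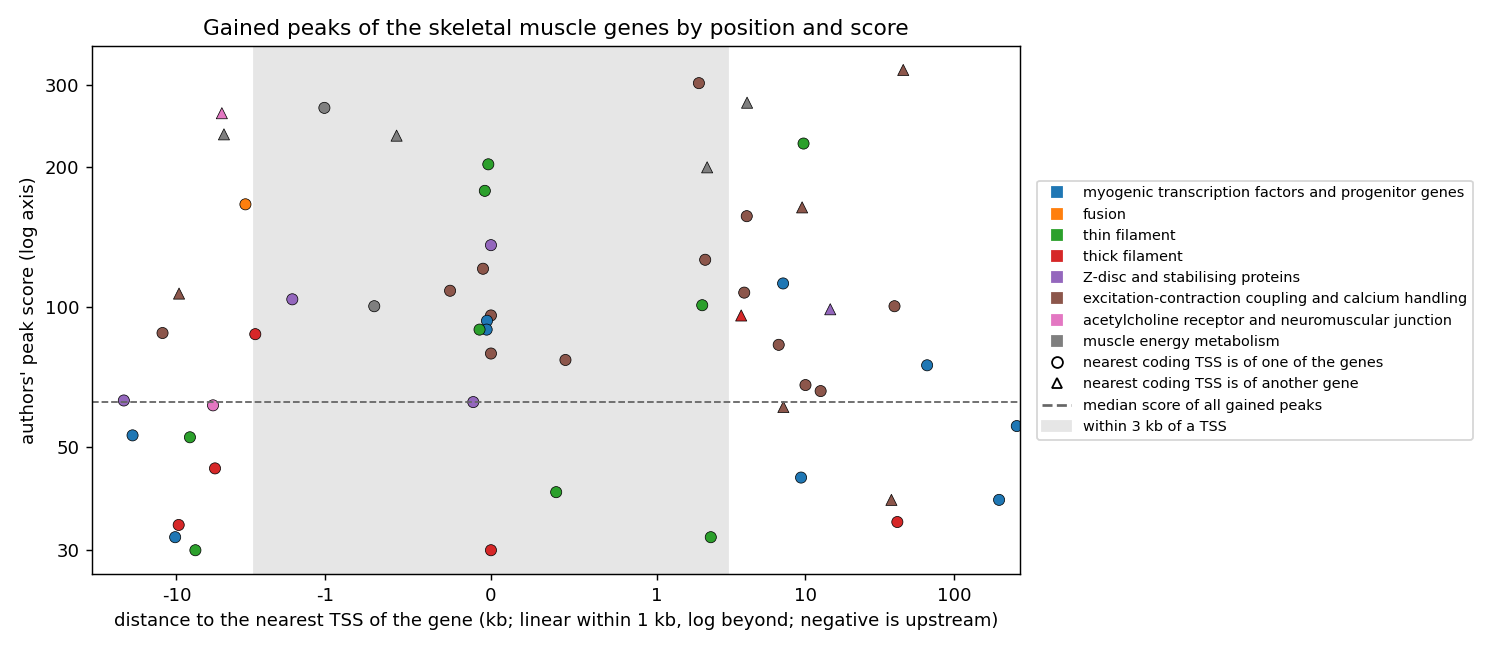
Distance of each of the 57 gained peaks from the nearest TSS of its gene (x axis, kb, linear within 1 kb and logarithmic beyond, negative upstream) against the authors' peak score (y axis, logarithmic), coloured by role. Triangles have the TSS of another gene as the nearest, the dashed line is the list median of 62.5, the grey band is within 3 kb of a TSS, and 24 of the 57 peaks lie in it.

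GC content was 59.0% ± 7.45 (SD over 57 peaks) against 56.7% ± 8.55 over the gained list. The SD is the spread of single peaks and not the error of the mean, and the difference was not tested. In the same classes, it was 62.3% ± 6.22 for the set and 64.4% ± 10.1 for the list near a TSS, and 54.8% ± 6.84 and 54.3% ± 6.43 away from one. The ratio of observed to expected CpG near a TSS had a median of 0.403 for the set and 0.466 for the list. Repeats covered at least 50% of 4 of the 57 peaks (7.02%) and of 10.2% of the list. These peaks were in the *Trdn* intron, upstream of *Myog* and at *Ryr1* (2 peaks), and without them *Trdn* and *Myog* had no gained peak.

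The gained peaks were searched for sites of muscle transcription factors, and most of these were found in few peaks of the set. An E-box (CANNTG) was present in 28 of 57 peaks (49.1%, 36.6 to 61.7%) against 55.0% of all gained peaks. The E-box preferred by MYOD (CAGCTG, a subset of CANNTG) was present in 5 (8.77%, 3.81 to 18.9%) against 13.2%, in peaks of *Acta1*, *Cacna1s*, *Myh3*, *Pax7* and *Pygm*. The MEF2 consensus was found in 2 (3.51%, 0.968 to 11.9%) against 3.26%, at *Ckm* and *Casq1*, and no peak of the set held both CAGCTG and MEF2, which 0.385% of the list did. The CArG box and the MCAT site ACATTCC were each found in a single peak, that at the *Acta1* promoter (1.75%, against 2.46% and 3.76% of the list), and the MEF3 site TCAGGTT in 0 (0%, upper limit 6.31%, against 1.83%). The GATA site AGATAAG was found in 3 (5.26% against 5.45%), CCAAT in 16 (28.1% against 29.3%) and the SP/KLF site GGGCGG in 18 (31.6%, 21 to 44.5%, against 22.5%). The list share lay within the interval of the set for all 9 motifs, but the intervals are wide and do not show that the shares are alike. In 11 of the 57 peaks (19.3%) none of the 9 was found, against 18.4% of the list. Near a TSS of any protein-coding gene, an E-box was in 14 of 32 peaks (43.8%) against 44.5% of the list, MEF2 in 2 (6.25%) against 1.90%, CAGCTG in 2 (6.25%) against 12.1% and GGGCGG in 12 (37.5%) against 46.1%. Away from one, MEF2 was in 0 of 25 peaks against 3.66% and GGGCGG in 6 (24.0%) against 15.4%, so the order of set and list for these motifs turned with the class, and the counts are small. These are matches of exact letters, not of bound factors.

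**Figure D4:**
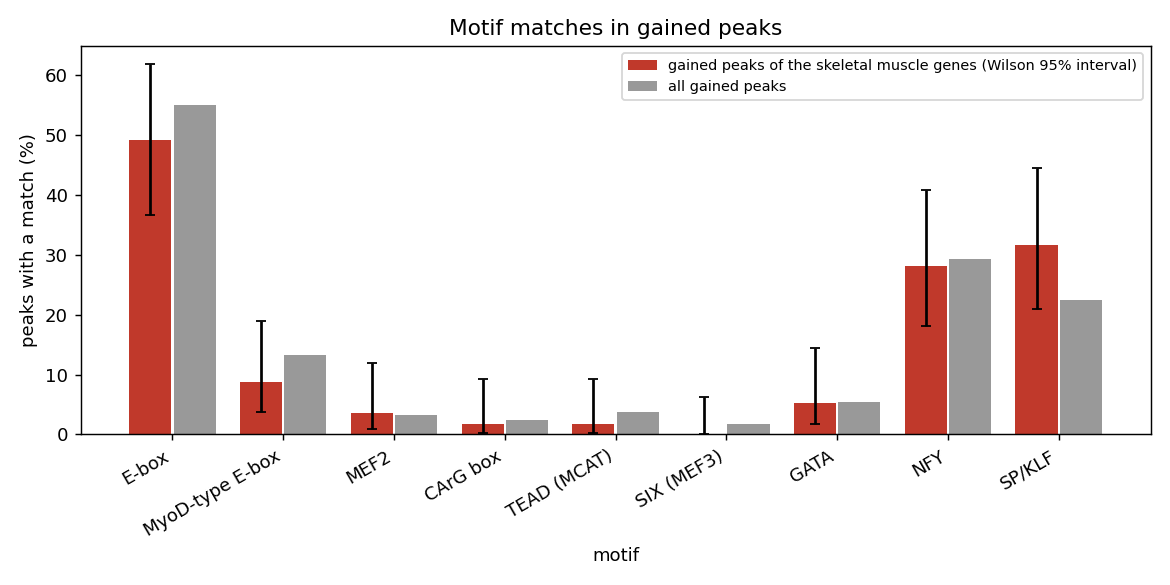
Percentage of gained peaks with at least 1 match (y axis) for 9 motifs (x axis), in the 57 peaks of the skeletal muscle genes (red, with Wilson 95% intervals) and in all 12991 gained peaks (grey). The grey bar lies within the interval of the red bar for all 9 motifs.

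The promoters of the same genes were then searched over a window of fixed position. RefSeq promoters (GRCm38.p6, 250 bases before to 50 after the start) were at hand for 29 of the 43 genes, as 31 promoters. CAGCTG was present in 16 of 31 (51.6%) against 16.3% of 32851 promoters of the same length, and MEF2 in 5 of 31 (16.1%) against 3.19%. All 5 promoters with MEF2 were among the 21 of genes without a gained promoter peak, and 0 of the 10 promoters of genes with one held it, while CAGCTG was in 9 of the 21 (42.9%) and 7 of the 10 (70.0%). The 10 leave out *Actn3*, *Myod1*, *Myoz1*, *Neb*, *Pax3*, *Stac3* and *Tnnt3*. These genes had a gained promoter peak but no RefSeq promoter at hand. CANNTG was present in 74.2% and 72.3%, and GC content was 55.2% ± 7.45 and 53.8% ± 11.3. A gained peak overlapped 6 of these promoters, of *Acta1*, *Atp2a1*, *Cacna1s*, *Casq1*, *Myl1* and *Tnnc2*, and 5 of the 6 held a CAGCTG. Of those 5 sites, only that of *Cacna1s* lay inside the gained peak. The others began at -221 in *Acta1*, -55 in *Atp2a1*, -195 in *Casq1* and -224 in *Myl1*, counted from the RefSeq start, and were outside a peak that covered 151 of the 300 bases (31 in *Casq1*). All gained peaks have the same width of 151 bp, and how far accessibility extended beyond it is not shown by the list. CAGCTG was also present in promoters of genes without a gained peak, such as *Chrna1*, *Eno3*, *Klhl41*, *Musk*, *Mybpc1* and *Myh4*.

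Each of 15 genes of the set was placed beside the gene that encodes the same type of protein in cardiac muscle. A gained peak was present at 14 of the 15 skeletal genes and 9 of the cardiac genes, and a gained promoter peak at 12 and 5. The cardiac genes (60% and 33.3%) were thus also above the shares of all protein-coding genes (37.4% and 12.4%). In 8 pairs only the skeletal gene had a gained promoter peak, in 4 both had one, in 2 neither had, and in 1 pair only the cardiac gene had. That last pair was the troponin I genes, where *Tnni2* had none and *Tnni3* had 3 gained peaks, 2 of them at the promoter. The calsequestrins (*Casq1* 1, *Casq2* 0), the calcium pumps (*Atp2a1* 2, *Atp2a2* 0), the myosin-binding proteins C (*Mybpc2* 1, *Mybpc3* 0) and the calsarcins (*Myoz1* 1, *Myoz2* 0) had gained peaks at the skeletal gene alone. *Ryr1* had 9 gained and 0 lost peaks at 122 kb of length, and *Ryr2*, the cardiac release channel, 1 gained and 3 lost at 554 kb. *Cacna1c*, the cardiac calcium channel, had 12 gained and 2 lost peaks at 609 kb, more gained peaks than the 4 of *Cacna1s* at 67.1 kb. In sum the skeletal genes held 34 gained peaks and the cardiac genes 27. The pairs do not stand for the whole set, since *Myh3* was taken for the heavy chains and *Mybpc2* for the myosin-binding proteins C, and *Tnni2* is the only one of the 14 genes without a peak that is in a pair. They were drawn up with earlier results of these data known, and the difference between the groups was not tested.

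**Figure D5:**
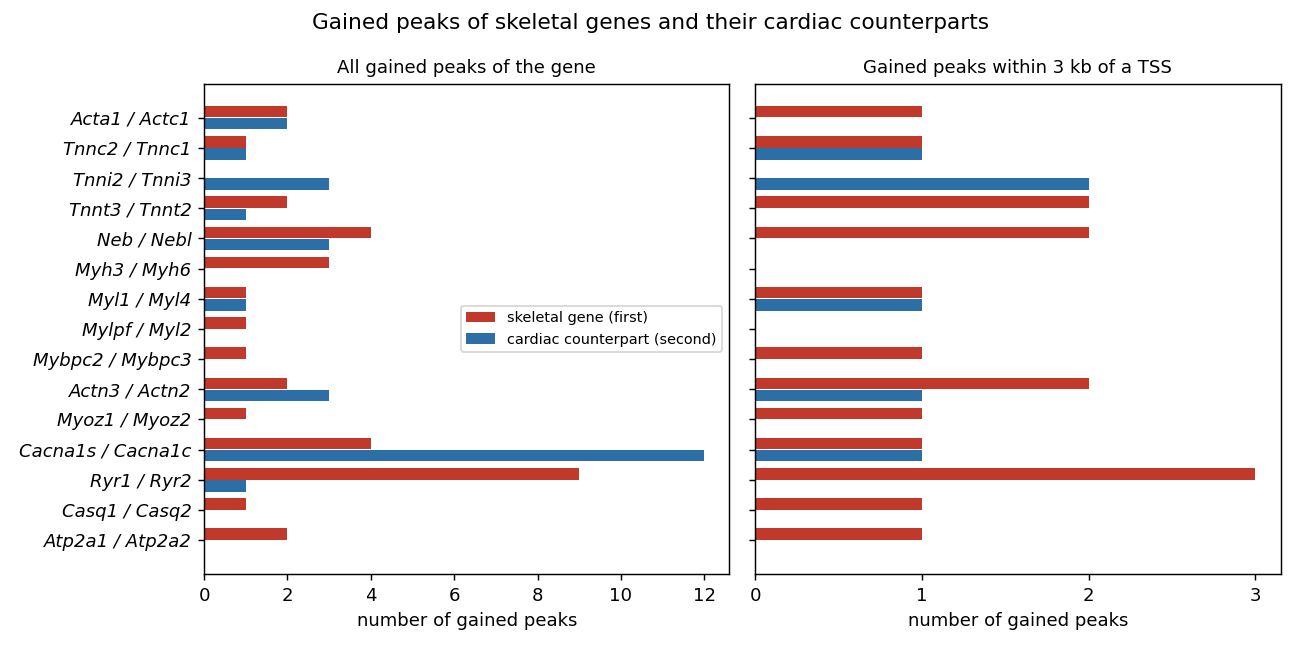
Number of gained peaks (x axes) for 15 pairs of a skeletal gene (red) and its cardiac counterpart (blue), over all gained peaks of the gene (left) and those within 3 kb of a TSS (right). On the right a red bar stands alone in 8 pairs and a blue bar alone in the *Tnni2* and *Tnni3* pair.

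Of 54 further skeletal muscle genes outside the set, 39 had a gained peak (72.2%) and 14 a gained promoter peak (25.9%), against 37.4% and 12.4% of protein-coding genes. This further list includes genes that cardiac muscle also uses, among them *Ttn*, *Des*, *Hrc*, *Jph2*, *Mef2c* and *Smyd1*. Its shares therefore do not stand for skeletal muscle genes alone. A lost peak was present at 6 of the 54, near the background of 10.8%, and 2 of these, *Ldb3* and *Cacna2d1*, were genes of the Z-disc and the triad. The promoter share was 7 of 20 among contractile and Z-disc genes, with *Tpm2* (highest score 247.5) and *Tnnt1* (215.5) among them, and 3 of 10 among genes of the triad, *Hrc* (313.5), *Srl* (202.5) and *Sypl2* (159.5). It was 2 of 5 at the neuromuscular junction, *Agrn* (175.0) and *Rapsn* (173.0). Among 11 further myogenic regulators only *Eya1*, a transcriptional cofactor, had a gained promoter peak (highest score 42.0), while 8 had any gained peak (72.7%) and 4 had a lost peak, *Eya1*, *Eya4*, *Mef2a* and *Mef2c*. Among 8 further genes of metabolism, 1 had a gained promoter peak (12.5%) and 3 any gained peak (37.5%), shares close to those of all protein-coding genes.

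Markers of pharyngeal mesoderm and somites, tissues that lie next to the heart and form skeletal muscle among other cell types, were counted by the same rule. Not all of these markers are specific to muscle-forming cells or to tissue outside the heart. Of 14 pharyngeal mesoderm and somite markers, 9 had a gained peak (64.3%), 1 had a gained promoter peak (7.14%, *Tcf15*, score 399.5) and 2 had a lost peak (*Isl1* and *Tcf21*), against 37.4%, 12.4% and 10.8% of all protein-coding genes. All 7 pharyngeal mesoderm markers were without a gained promoter peak, a number too small to set apart from the share of all genes. Of 8 cardiomyocyte markers, 6 had a gained peak (75%), 3 at the promoter (*Actn2*, *Nppa* and *Tnni3*), and 0 had a lost peak, against the same background shares. Of these markers, 6 are also cardiac genes of the pairs above. Sites that are equally open in both genotypes are in neither list, so these counts do not show which cell types were present, and the part of cell composition in the gained peaks of the skeletal muscle genes was not tested.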

How the data were processed

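ATAC-seq was performed on pooled E10.5 hearts (4 WT and 4 *Chd4-CMko* samples). Per the labels, alignment to mm10 was by BWA-MEM, peak calling by HOMER 4.10.3 and annotation by ChIPseeker 1.20.0. The deposited score of each peak was made by the authors and its scale is not stated. How the 4 samples were combined, the handling of duplicates and any Tn5 shift are not given in the sources used here, and each can change which peaks are listed. Scores were therefore compared within a list only. The files held no value per sample, so no test between genotypes was run.

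Peaks were assigned with GENCODE M21 and GRCm38 sequence (Python 3.11.15, pandas 2.3.3, pysam 0.24.0). Percentiles are ranks within the gained list. A peak was counted for each gene whose rule it met. Motifs were searched on both strands without mismatch. Assignment, motif and interval code was tested on simulated data. All 43 genes are accounted for by name. Sequences were printed for promoter peaks outside annotated UTRs, a choice of those the rule allowed. The genes, lists, pairs, sequences and rules were chosen with earlier results of these data known. Alternatives changed the assignment, promoter distance, score range, repeats and window. Some genes of the further skeletal muscle list are not reported here, and its counts were made without them.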

Additional observations from a re-analysis of the deposited data

How the results depend on the processing

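Of 49 alternative settings, 41 left the value within 1.5 times of the reported count or within its interval. Counting only peaks that overlap the gene body lowered the genes with a gained peak from 29 to 15, and the share of all protein-coding genes from 37.4% to 20.3%. The genes with a lost peak fell from 2 to 1 with peaks within 10 kb alone, with overlap of the gene body alone, or with TSSs of all annotated genes, where the share of all protein-coding genes was 7.30%, 5.74% and 8.16%. The other settings gave 22 to 29 genes with a gained peak, and those that apply to all protein-coding genes gave 24.7% to 38.2% of them. A promoter distance of 1 or 10 kb gave 15 or 24 genes, against 9.23% or 21.8% of all protein-coding genes. Coding start sites alone or the 5′ end alone, both added after the data were seen, gave 14 (9.92% and 8.19% of all protein-coding genes). In a window of 300 bp around the peak centre, E-boxes were in 75.4% of peaks (79.1% of the list) and CAGCTG in 19.3% (22.8%), and in promoter peaks alone the GATA site was in 0%. Cardiac counterparts with a gained peak numbered 9, and 5 within 3 kb of a TSS. No paired analysis was possible because the files hold no value per sample, and for the same reason no sample could be left out. The lists hold differential peaks only, so unchanged sites and sites below the authors' limits are not seen, and the depth behind each peak is not given.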
